A study of Mus musculus with 12 samples.

Results

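The enzymes described here break down or convert amino acids. They were grouped as enzymes of the proximal tubule, the nephron segment that takes filtered amino acids back from the urine. Arrays of whole kidney do not show in which segment each one is expressed. The set held 9 genes: Uroc1, Hal, Amdhd1, Ftcd, Hpd, Fah, Gatm, Ddc and Agxt2. It was chosen by name but with earlier results of these data known, so its calls are not independent support. Each was read through the array probe set that the platform annotation pairs with that symbol alone. Each had 1 such probe set, so all 9 were measured, among 19938 genes in all.

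RNA of whole kidneys from 3-week-old mice was hybridised to 12 Affymetrix arrays, 3 in each of 4 groups. PpargΔ/Δ mice (Pparg null below) lack PPARγ, a nuclear receptor needed to form fat cells, and were set against control mice of the same mixed C57BL6/SV129 strain. AZIP mice, which stay without fat because of their transgene, are on the FVB strain and were set against FVB control mice. Every array held RNA pooled from 3 mice, 36 mice in all, so n is 3 pools per group and the spread between arrays is smaller than that between single mice. The mice were untreated as far as the labels say. The sources used here do not give their sex, the deleted part of Pparg, the Cre line behind the deletion or the promoter of the transgene.

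The 9 enzymes serve separate routes. Hal, Uroc1, Amdhd1 and Ftcd act in turn on histidine: Hal removes its amino group, Uroc1 hydrates the urocanate that results, Amdhd1 opens the ring, and Ftcd passes the last carbon unit to folate. Hpd and Fah act in the breakdown of tyrosine, Hpd at an early oxygenation and Fah at the final hydrolysis, and loss of Fah causes tyrosinaemia. Gatm joins arginine to glycine in the first step of creatine synthesis, for which the kidney is a main site. Ddc makes dopamine from L-DOPA, and dopamine made in the proximal tubule favours sodium excretion. Agxt2 is a mitochondrial aminotransferase that breaks down dimethylarginines and the beta-amino acid beta-aminoisobutyrate.

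Levels are the authors' log2 values, and differences are mutant minus control on the log2 scale with the SE from limma. Pparg itself read between 8.0 and 8.19 in the Pparg null arrays and between 7.90 and 8.02 in the mixed controls (0.11 ± 0.06, limma adjusted p = 0.339), so this probe set is no check of the genotype, which was taken from the labels. The labelled tissue was checked against markers: the proximal tubule transporter Slc34a1 read between 13.12 and 13.24 and the thick limb protein Umod between 13.02 and 13.15 on all 12 arrays. Of the hepatocyte genes, Cyp3a11 and Cyp7a1 read at most 3.30 and 4.08, while Ttr read up to 11.39, Fgb up to 8.53, Apob up to 8.22 and Apoa2 up to 7.80. Of the adrenal genes, Cyp11b1 read at most 5.39, while Star read up to 6.82, Chga up to 6.81, Th up to 6.42 and Cyp11b2 up to 6.41. Xist read between 12.18 and 12.34 on all arrays, and the Y-linked genes Kdm5d, Eif2s3y and Uty between 3.07 and 4.85. Across genes, the mean r between arrays within a group lay between 0.997 and 0.998, and every array was used.

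The enzymes stood at very different places in the range of signals. The mean of Gatm over the 12 arrays lay at percentile 99.8 of the 19938 genes and that of Fah at percentile 99.1, followed by Hpd at 91.7, Agxt2 at 91.4 and Ddc at 82.8. Uroc1 lay at percentile 53.2, and the other histidine enzymes lay lower, Ftcd at 37.7, Amdhd1 at 27.8 and Hal at 22.1. Probe sets differ in brightness, so these percentiles do not rank the transcripts. The deposited values carry no detection call, and whether the low signals of Hal, Amdhd1 and Ftcd lie above background was not tested.

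The first comparison asked how the kidney differs when Pparg is missing, together with any loss of fat that follows from it. The second asked how it differs when fat is missing but Pparg is present. In that comparison the Pparg probe set read 0.22 higher in AZIP arrays, without overlap (limma adjusted p = 0.0736). Loss of the receptor and loss of fat cannot be told apart within the first. In the Pparg null kidney Agxt2 rose by 0.31 ± 0.06, and it was the 1 of 9 enzymes past the threshold of a limma adjusted p under 0.05. In the AZIP kidney Uroc1 fell by 0.96 ± 0.21, again the 1 of 9 past the threshold. Over all genes 5.29% passed in the Pparg null comparison (2.67% higher, 2.62% lower) and 2.43% in the AZIP comparison (1.30% higher, 1.13% lower), so the count of enzymes called was not read as a result about the set. Groups did not overlap for 3 enzymes in the Pparg null comparison (Uroc1, Hal and Agxt2) and for 4 in the AZIP comparison (Uroc1, Hpd, Fah and Ddc), where 26.1% and 22.5% of all genes did not overlap. The median difference of the 9 enzymes was -0.04 in Pparg null kidneys, beside -0.0089 over all genes, and -0.11 in AZIP kidneys, beside 0.0028 over all genes. At an unadjusted p under 0.05 limma found 3 enzymes in the first comparison and 4 in the second, beside 20.4% and 16.4% of all genes. In whole kidney, fewer cells of a type and less RNA per cell cannot be told apart.

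**Figure D1:**
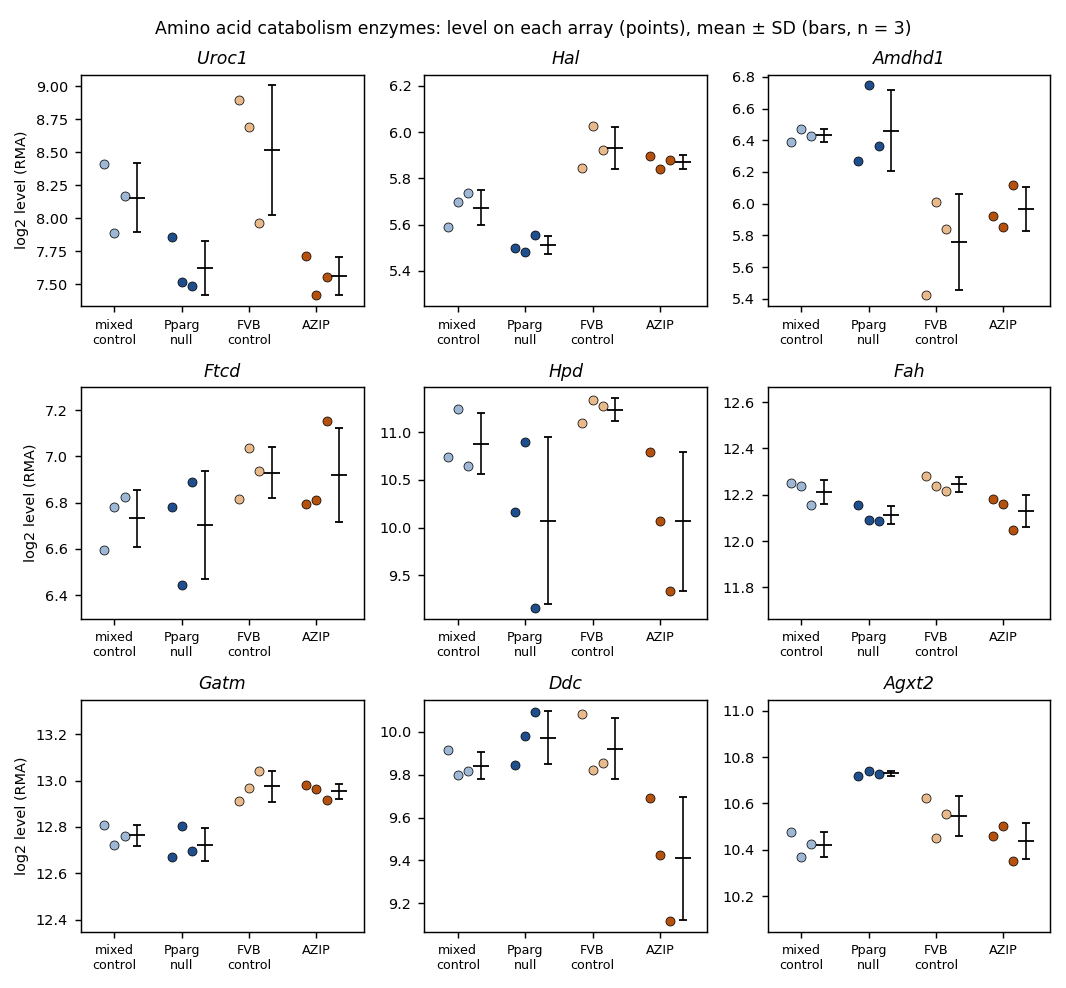
Log2 level (vertical axes, RMA values, own range for each gene, at least 1 unit) of the 9 enzymes in the 4 groups; points are arrays, each a pool of 3 mice, and bars are the mean ± SD (n = 3). Agxt2 is higher on the 3 Pparg null arrays than on the other 9, Uroc1 is lower on both sets of mutant arrays than on their controls, and Hpd spreads from 9.16 to 10.90 within the Pparg null group.

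Agxt2 was higher in Pparg null kidneys. Its Pparg null arrays read 10.72, 10.74 and 10.73 and its mixed control arrays 10.47, 10.37 and 10.42. All 3 null arrays lay above all mixed control arrays, and also above the 6 arrays of the other strain. The difference was 1.24-fold (limma adjusted p = 0.0121, 95% interval 0.18 to 0.43 in log2). Without mixed control replicate 2 it was 0.28 and just missed the threshold (limma adjusted p = 0.0507). It passed without each of the other 5 arrays of the comparison. In the AZIP kidneys Agxt2 read 10.46, 10.50 and 10.35, against 10.62, 10.45 and 10.56 in the FVB controls, and the groups overlapped. The difference there was -0.11 ± 0.06 (limma adjusted p = 0.389, interval -0.23 to 0.02).

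Agxt2 and Uroc1, the enzymes that passed, are shown with the 250 bases before each RefSeq start, on build GRCm38.p6, and Ddc with the stretch before each of its 2 listed starts, since these are separate promoters. Agxt2 has 2 listed starts whose stretches overlap on the plus strand, and the second, chr15:10358329-10358578, is printed. The Uroc1 stretch is chr6:90333039-90333288 on the plus strand, and those of Ddc are chr11:11898145-11898394 and chr11:11890409-11890658 on the minus strand. Capitals mark matches to the motifs searched.
Agxt2: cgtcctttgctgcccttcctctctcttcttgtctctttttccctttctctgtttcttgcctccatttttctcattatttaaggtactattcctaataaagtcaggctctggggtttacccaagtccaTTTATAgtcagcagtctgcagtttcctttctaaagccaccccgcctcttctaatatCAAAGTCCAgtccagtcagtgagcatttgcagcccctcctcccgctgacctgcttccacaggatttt
Uroc1: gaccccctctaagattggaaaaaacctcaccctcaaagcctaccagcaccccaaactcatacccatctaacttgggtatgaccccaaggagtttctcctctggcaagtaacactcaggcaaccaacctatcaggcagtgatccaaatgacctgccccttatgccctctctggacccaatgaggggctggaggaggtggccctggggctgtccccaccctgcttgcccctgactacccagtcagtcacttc
Ddc, first listed start: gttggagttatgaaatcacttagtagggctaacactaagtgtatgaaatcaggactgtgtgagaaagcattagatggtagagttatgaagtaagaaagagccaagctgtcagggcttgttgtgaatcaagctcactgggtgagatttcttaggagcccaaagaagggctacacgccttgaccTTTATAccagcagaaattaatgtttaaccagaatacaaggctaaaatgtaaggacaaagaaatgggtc
Ddc, second listed start: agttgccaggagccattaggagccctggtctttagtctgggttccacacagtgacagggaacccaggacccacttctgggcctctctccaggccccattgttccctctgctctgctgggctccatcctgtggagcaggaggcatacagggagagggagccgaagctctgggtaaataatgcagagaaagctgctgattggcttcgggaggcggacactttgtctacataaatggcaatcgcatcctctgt

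Matches to 5 motifs were searched in these stretches on both strands, for all 9 enzymes and for 32851 RefSeq starts. CAAAGTCCA, a site of the hepatocyte nuclear factor HNF4, occurs in the Agxt2 stretch at -67 to -59 from the start and in none of the other 8 enzymes, and 0.384% of all stretches hold it. The core promoter motif TATAAA lies before Hal, Ftcd, the first listed start of Ddc and Agxt2, and 12.4% of all stretches hold it. In Agxt2, Hal and Ddc it lies on the opposite strand. This match spans -28 to -23 in Hal, -29 to -24 in Ftcd, -68 to -63 in Ddc and -123 to -118 in the printed Agxt2 stretch. Counted from the first listed start of Agxt2, TATAAA spans -77 to -72 and CAAAGTCCA -21 to -13. GTTAAT, a part of the HNF1 site, was found before Ftcd alone among the 9 (6.43% of all stretches) and TTGCNNAA, a C/EBP site, before Hal alone (9.56%). The direct repeat bound by PPAR with RXR was not found before any of the 9 (0.338%). The Uroc1 stretch and the second Ddc stretch hold none of the 5. These matches describe letters in the windows and were not tested as binding sites.

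The histidine enzymes did not move as a group. Uroc1, the second enzyme of the route, carried the largest shift. In the AZIP kidneys it read 7.71, 7.42 and 7.55, against 8.90, 8.69 and 7.96 in the FVB controls. Every AZIP array lay below every FVB control array, with FVB control replicate 3 nearest to them. The fall was 1.94-fold (limma adjusted p = 0.0388, interval -1.41 to -0.50 in log2). It missed the threshold without AZIP replicate 2 or 3 or FVB control replicate 1 or 2 (limma adjusted p up to 0.155) and with only the AZIP and FVB arrays in the model (limma adjusted p = 0.0950).

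Uroc1 read 7.86, 7.52 and 7.49 in the Pparg null kidneys, and mixed control kidneys had 8.41, 7.89 and 8.16. The groups did not overlap, but the highest null array and the lowest control array lay next to each other. The difference was -0.54 ± 0.21 (limma adjusted p = 0.173). The effects of both lines on Uroc1 differed by 0.42 ± 0.30, with an interval from -0.23 to 1.07 (limma adjusted p = 0.912).

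Hal, which opens the route, read 5.50, 5.48 and 5.56 in the Pparg null kidneys and 5.59, 5.70 and 5.74 in the mixed controls. The groups did not overlap, and the difference of -0.16 ± 0.06 did not pass (limma adjusted p = 0.129). In the AZIP kidneys Hal read 5.90, 5.84 and 5.88 against 5.84, 6.03 and 5.92 in the FVB controls, with overlap (-0.06 ± 0.06, limma adjusted p = 0.685). Amdhd1, which lies beside Hal on chromosome 10, read 6.27, 6.75 and 6.36 in the Pparg null kidneys and 6.39, 6.47 and 6.43 in the mixed controls. The null arrays lay on both sides of the controls (0.03 ± 0.15, limma adjusted p = 0.941). In AZIP kidneys Amdhd1 read 5.92, 5.86 and 6.12 against 5.42, 6.01 and 5.84, again with overlap (0.21 ± 0.15, limma adjusted p = 0.547). Ftcd, the last enzyme, differed by -0.03 ± 0.12 in Pparg null and -0.01 ± 0.12 in AZIP kidneys (limma adjusted p = 0.929 and 0.983), with intervals from -0.30 to 0.24 and from -0.28 to 0.26. All of its groups overlapped, between 6.44 and 7.15.

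**Figure D2:**
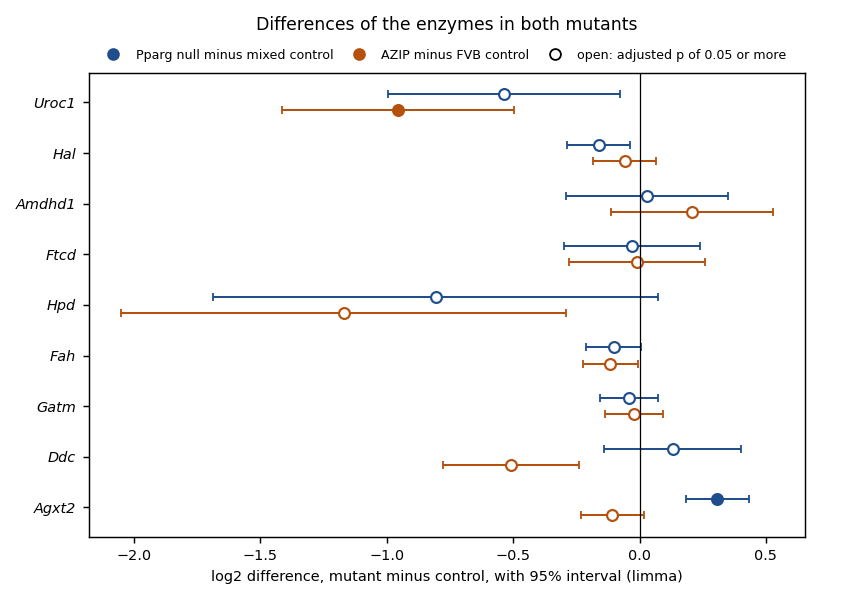
Log2 difference of each enzyme (horizontal axis, mutant minus control) in Pparg null kidneys (blue) and AZIP kidneys (orange), with the 95% interval from limma over 3 arrays per group; filled points have an adjusted p under 0.05. Filled points are Agxt2 in the Pparg null comparison and Uroc1 in the AZIP comparison, and the intervals of Hpd are the widest.

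Of the tyrosine enzymes, Hpd had wide differences that did not pass and Fah small ones. Hpd read 10.17, 10.90 and 9.16 in the Pparg null kidneys, against 10.74, 11.25 and 10.65 in the mixed controls. In the AZIP kidneys it read 10.79, 10.07 and 9.34, against 11.10, 11.33 and 11.28 in the FVB controls. Within both mutant groups the arrays spanned more than 1 log2 unit, and AZIP arrays alone lay wholly below their controls. The differences were -0.81 ± 0.40 and -1.17 ± 0.40 (limma adjusted p = 0.292 and 0.159). Leaving out 1 array moved the first between -1.22 and -0.35 and the second between -1.53 and -0.81. Pparg null replicate 3 set the upper end of the first (-0.35 without it) and replicate 2 the lower end (-1.22 without it). The spread of Hpd around its group means, an SD of 0.59 over the 12 arrays, lay at percentile 99.9 of all genes.

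The lowest Hpd arrays were also those lowest in proximal tubule markers. Pparg null replicate 3 and AZIP replicate 3 had the lowest mean log2 level of 22 proximal tubule markers in their strains, 11.44 and 11.58. The other arrays of these strains lay between 11.59 and 11.85 and between 11.73 and 11.95. The part of this in the Hpd values was not tested.

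Fah read 12.16, 12.09 and 12.09 in the Pparg null kidneys and 12.25, 12.24 and 12.15 in the mixed controls, with a touching overlap. In AZIP kidneys it read 12.18, 12.16 and 12.05 against 12.28, 12.24 and 12.22, without overlap. The differences of -0.10 ± 0.05 and -0.11 ± 0.05 did not pass (limma adjusted p = 0.279 and 0.278). The intervals ran from -0.21 to 0.01 and from -0.22 to -0.01.

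Gatm, the entry into creatine synthesis, stayed close to its controls in both lines. It read 12.67, 12.80 and 12.70 in the Pparg null kidneys and 12.81, 12.72 and 12.76 in the mixed controls. It read 12.98, 12.96 and 12.92 in the AZIP kidneys and 12.91, 12.97 and 13.04 in the FVB controls. Both pairs of groups overlapped. The differences were -0.04 ± 0.05 and -0.02 ± 0.05 (limma adjusted p = 0.720 and 0.895), with intervals from -0.16 to 0.07 and from -0.14 to 0.09.

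Ddc, the dopamine-forming enzyme, lay lower in AZIP kidneys, just short of the threshold. It read 9.69, 9.43 and 9.12 there, against 10.08, 9.82 and 9.85 in the FVB controls. The groups did not overlap, and the difference was -0.51 ± 0.12 (limma adjusted p = 0.0548). It passed after quantile normalization (limma adjusted p = 0.0481), after a shift to equal medians (0.0444), with dim genes left out (0.0397), with a variance trend (0.0288) and without AZIP replicate 1 (0.0147). With any other single array left out it did not pass (limma adjusted p up to 0.206). In Pparg null kidneys Ddc read 9.84, 9.98 and 10.09, against 9.91, 9.80 and 9.82, with overlap and with the difference on the other side of 0 (0.13 ± 0.12, limma adjusted p = 0.611).

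The effects of both lines were then compared directly, as the Pparg null difference minus the AZIP difference. For 0 of the 9 enzymes did they differ at a limma adjusted p under 0.05, where 0.0201% of all genes, 4 in number, passed. At an unadjusted p under 0.05, which 5.82% of all genes met, there were 2, Agxt2 with 0.42 ± 0.08 (limma adjusted p = 0.332) and Ddc with 0.64 ± 0.17 (limma adjusted p = 0.606). For these 2 genes the Pparg null difference lay above 0 and the AZIP difference below it. The other enzymes had intervals that include 0, the widest that of Hpd, from -0.88 to 1.61.

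Some levels differed between the control groups. FVB and mixed controls differed in 3 of 9 enzymes, beside 7.22% of all genes (limma; 3.50% higher and 3.72% lower in FVB). These controls also enter the comparisons above. Amdhd1 was lower in FVB, at -0.67 ± 0.15 (limma adjusted p = 0.0164). Its neighbour Hal was 0.26 ± 0.06 higher (limma adjusted p = 0.0178) and Gatm 0.21 ± 0.05 higher (limma adjusted p = 0.0314). Groups did not overlap for any of the 3, nor for 28.5% of all genes (15.8% higher and 12.7% lower in FVB). The summed level of 10 hepatocyte markers was also lower in FVB, between 9.48 and 9.59 (log2) beside 11.07 to 11.69 in mixed controls, and its part in these values was not tested. That sum is weighted to the brightest marker, Ttr, at -4.16, while the median difference of the 10 was -0.10 and limma called 3. Strain, colony and the match of each strain's transcript to the probes cannot be told apart here. Amdhd1 lost the threshold without mixed control replicate 2 or 3 or FVB control replicate 1 (limma adjusted p up to 0.0569). Hal lost it without mixed control replicate 1 or FVB control replicate 2 or 3 (limma adjusted p up to 0.0812), and Gatm without any single array except FVB control replicate 1 (limma adjusted p up to 0.118). With only the groups compared, Hal and Gatm also missed it (limma adjusted p = 0.0542 and 0.0515).

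Across the 4 groups the order of means differed from gene to gene. Gatm and Hal were higher in both FVB groups than in both mixed groups, Gatm with means ± SD of 12.97 ± 0.07 (FVB control), 12.95 ± 0.03 (AZIP), 12.76 ± 0.04 (mixed control) and 12.72 ± 0.07 (Pparg null, n = 3 each). Within each strain the neighbours in that order of Gatm were within their spread of each other. Uroc1 had both control means, 8.52 ± 0.49 in FVB and 8.16 ± 0.26 in mixed controls, above both mutant means. These were 7.62 ± 0.20 and 7.56 ± 0.15 in Pparg null and AZIP kidneys, and only the AZIP difference passed. The means of the mutants lay within 1 SD of each other. Those of the controls did so by the SD of FVB controls but not by that of mixed controls. The FVB minus mixed control difference of Uroc1 was 0.36 ± 0.21 (limma adjusted p = 0.387). It passed without FVB control replicate 3 (limma adjusted p = 0.0438). Agxt2 had 10.73 ± 0.01 in Pparg null kidneys above 10.54 ± 0.09 in FVB controls, 10.44 ± 0.08 in AZIP kidneys and 10.42 ± 0.05 in mixed controls.

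**Figure D3:**
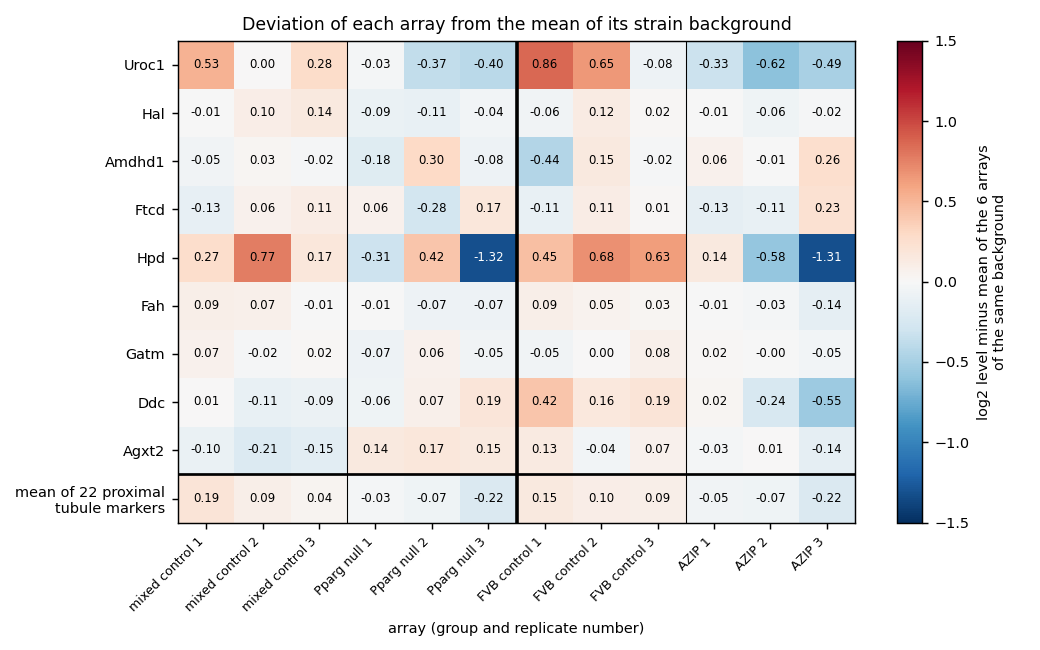
Log2 level of each enzyme (rows) on each array (columns) minus the mean of the 6 arrays of the same strain, printed in the cells and coloured from blue (lower) to red (higher). The bottom row gives the mean of 22 proximal tubule markers; Pparg null replicate 3 and AZIP replicate 3 are lowest both there (-0.22 each) and in Hpd (-1.32 and -1.31).

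Proximal tubule markers were examined as a list, since the enzymes were grouped under that segment. Of 22 markers, all measured, 3 fell and 0 rose in Pparg null kidneys (limma), with a median of -0.17, and 12 had an unadjusted p under 0.05. In AZIP kidneys 1 fell and 0 rose, with a median of -0.14, and 12 had an unadjusted p under 0.05. Over all genes limma called 5.29% in the Pparg null and 2.43% in the AZIP comparison, and 20.4% and 16.4% had an unadjusted p under 0.05. These shares stand beside the counts of every marker list given here. The marker lists too were chosen with earlier results of these data known, so their counts, levels and correlations are not independent support. The summed level of the list ranged from 16.49 to 16.57 (log2) in Pparg null and from 16.63 to 16.74 in mixed control arrays. It ranged from 16.57 to 16.69 in AZIP and from 16.77 to 16.81 in FVB control arrays. The list thus stood lower in both mutants without overlap. Over the 12 arrays, after the mean of each strain was subtracted, the mean log2 level of the list correlated with Fah at r = 0.94, Hpd at 0.85, Uroc1 at 0.82, Ddc at 0.49, Gatm at 0.40 and Hal at 0.39, and with Agxt2 at -0.20, Ftcd at -0.34 and Amdhd1 at -0.41. These r describe arrays that share the same mutant and control groups. The phosphate transporter Slc34a1 was at -0.01 and -0.05 (limma adjusted p = 0.912 and 0.675). Of 8 markers of interstitium and smooth muscle 3 rose and 0 fell in each line, and their summed level ranged from 13.34 to 13.41 (log2) in Pparg null, 13.00 to 13.06 in mixed control, 13.21 to 13.48 in AZIP and 13.06 to 13.12 in FVB control arrays. Of 9 collecting duct markers 3 rose in Pparg null kidneys, and limma called 0 in AZIP kidneys with 2 at an unadjusted p under 0.05. The part of these markers in the enzyme values was not tested.

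Other genes were taken from 9 lists of amino acid enzymes and 1 of transcription factors, with 128 genes in all, of which 113 were measured. In Pparg null kidneys 12 fell and 3 rose, which is 13.3% of the 113 beside 5.29% of all genes, with a median of -0.06 beside -0.0089. In AZIP kidneys 6 fell and 3 rose, 7.96% beside 2.43%, with a median of -0.09 beside 0.0028. The lists were chosen with earlier results of these data known, so these shares are not independent support. The genes they are set beside were unfiltered and include dim ones. Without the transcription factors, 8 fell and 2 rose of 103 measured in Pparg null kidneys (9.71%) and 4 fell and 1 rose in AZIP kidneys (4.85%). The first count of 15 became 8 without Pparg null replicate 2, 7 without replicate 3, 5 without mixed control replicate 1, 7 without replicate 2 and 9 without replicate 3. The second count of 9 became 1 without AZIP replicate 2, 3 without replicate 3, 1 without FVB control replicate 2 and 5 without replicate 3. Without FVB control replicate 1 limma called 0, with 38 at an unadjusted p under 0.05. With only the groups compared in the model, several calls given below missed the threshold, with limma adjusted p from 0.0539 to 0.131. They were those of Maob, Aldh2, Haao and Aass in Pparg null kidneys and of Abat, Kynu, Cbs, Bhmt, Got1, Ppargc1a and Nr3c1 in AZIP kidneys.

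**Figure D4:**
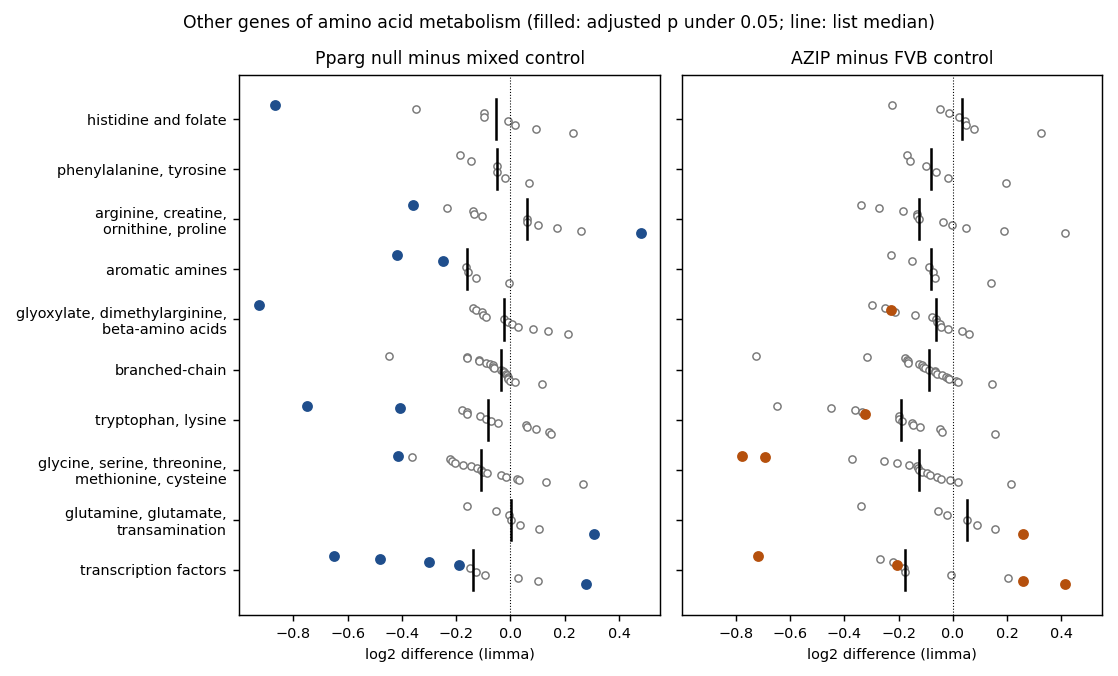
Log2 difference (horizontal axes) of each measured gene in 10 lists of amino acid metabolism and its transcription factors, in Pparg null (left) and AZIP kidneys (right); filled points have a limma adjusted p under 0.05 and the black line is the median of the list. Most list medians lie between -0.2 and 0.1, with Dpys and Hdc leftmost in the Pparg null panel and Bhmt, Bcat1 (which did not pass), Cebpa and Cbs in the AZIP panel.

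Beside the histidine route, Hdc, which makes histamine from histidine, fell by 0.87 ± 0.12 in Pparg null kidneys (limma adjusted p = 0.00294). Its 3 null arrays read 7.98, 8.26 and 8.58 and its mixed control arrays 9.18, 9.05 and 9.18, with no overlap. In AZIP kidneys Hdc was at 0.33 ± 0.12 (limma adjusted p = 0.194), and the effects of both lines differed by -1.19 ± 0.17 (limma adjusted p = 0.0558). In FVB controls Hdc was lower than in mixed controls, at -1.12 (limma adjusted p = 0.000186), so the mixed controls stood above the other 3 groups. Hdc was the 1 of 8 measured genes of its list that passed in Pparg null kidneys, and in AZIP kidneys limma called 0 with 1 at an unadjusted p under 0.05. Among 6 other enzymes of phenylalanine and tyrosine breakdown limma called 0 in either line, with 2 and 3 at an unadjusted p under 0.05. Hgd, which acts between Hpd and Fah, was at -0.14 and -0.16 (limma adjusted p = 0.224 and 0.233).

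Among 11 other genes of arginine, creatine, ornithine and proline 1 rose and 1 fell in Pparg null kidneys, and limma called 0 in AZIP kidneys with 6 at an unadjusted p under 0.05. The creatine kinase Ckb rose by 0.48 ± 0.08 (limma adjusted p = 0.00830), and the ornithine aminotransferase Oat fell by 0.36 ± 0.08 (limma adjusted p = 0.0318). The AZIP differences were 0.19 ± 0.08 for Ckb, with overlap, and -0.34 ± 0.08 for Oat, without overlap (limma adjusted p = 0.278 and 0.0578). Gamt, which completes creatine after Gatm, was at -0.23 and -0.13 (limma adjusted p = 0.111 and 0.481). Oat lost the threshold without any 1 of 5 arrays, all but Pparg null replicate 1 (limma adjusted p up to 0.115).

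Around Ddc, 2 of 6 other genes of aromatic amines fell in Pparg null kidneys and limma called 0 in AZIP kidneys, with 1 at an unadjusted p under 0.05. The monoamine oxidase Maob fell by 0.42 ± 0.08 (limma adjusted p = 0.0117), but not without mixed control replicate 1 (limma adjusted p = 0.0531). In AZIP kidneys Maob was at -0.07 ± 0.08 (limma adjusted p = 0.714). In FVB controls it was lower than in mixed controls, at -0.48 (limma adjusted p = 0.00261), so the mixed controls stood above the other groups. The aldehyde dehydrogenase Aldh2 fell by 0.25 ± 0.07 (limma adjusted p = 0.0491), but not without Pparg null replicate 2 or 3 or any 1 mixed control (limma adjusted p up to 0.153). Its AZIP difference was -0.23 ± 0.07, without overlap (limma adjusted p = 0.0978). Th, which makes the substrate of Ddc in nerve and adrenal medulla, read between 6.09 and 6.42 on all 12 arrays.

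Near Agxt2, 1 of 13 genes of glyoxylate, dimethylarginine and beta-amino acids fell in each line. Dpys, a dihydropyrimidinase on the route that yields beta-amino acids, fell by 0.93 ± 0.14 in Pparg null kidneys (limma adjusted p = 0.00441). Its 3 null arrays read 5.84, 5.97 and 5.93 and its mixed control arrays 7.18, 6.53 and 6.81, with no overlap. In AZIP kidneys Dpys was at -0.05 (limma adjusted p = 0.919), and in FVB controls it was lower than in mixed controls, at -1.03 (limma adjusted p = 0.000935). Abat, the GABA aminotransferase, fell by 0.23 ± 0.05 in AZIP kidneys (limma adjusted p = 0.0420), but not without AZIP replicate 2 or 3 or any 1 FVB control (limma adjusted p up to 0.145). Its Pparg null difference was -0.13 ± 0.05 (limma adjusted p = 0.178). In FVB controls Abat was higher than in mixed controls, at 0.20 (limma adjusted p = 0.0345), so the mean of FVB controls stood above the other groups. Ddah1, which like Agxt2 removes dimethylarginines, was at -0.09 and -0.02 (limma adjusted p = 0.307 and 0.894).

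Of 21 measured genes of branched-chain amino acid breakdown limma called 0 in either line, with 3 at an unadjusted p under 0.05 in Pparg null and 10 in AZIP kidneys. Of 14 genes of tryptophan and lysine breakdown 2 fell in Pparg null kidneys and 1 in AZIP kidneys. Haao, of the kynurenine route to NAD, fell by 0.75 ± 0.15 in Pparg null kidneys (limma adjusted p = 0.0190) and was at -0.65 ± 0.15 in AZIP kidneys (limma adjusted p = 0.0527). Aass, the first enzyme of lysine breakdown, fell by 0.41 ± 0.10 in Pparg null kidneys (limma adjusted p = 0.0420). Its AZIP difference was -0.36 ± 0.10, without overlap (limma adjusted p = 0.0899). Kynu, the kynureninase, fell by 0.32 ± 0.08 in AZIP kidneys (limma adjusted p = 0.0477). Its Pparg null difference was 0.06 ± 0.08 (limma adjusted p = 0.722). In FVB controls Kynu was higher than in mixed controls, at 0.51 (limma adjusted p = 0.00167), so the mean of FVB controls stood above the other groups. Haao lost the threshold without Pparg null replicate 2 or 3 or mixed control replicate 1 or 2 (limma adjusted p up to 0.0811). Aass lost it without any 1 of 5 arrays, all but Pparg null replicate 1 (limma adjusted p up to 0.121), and Kynu when any single array was left out (limma adjusted p up to 0.164).

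Of 17 measured genes of glycine, serine, threonine, methionine and cysteine 1 fell in Pparg null and 2 in AZIP kidneys. Cbs, which makes cystathionine from homocysteine, fell by 0.69 ± 0.12 in AZIP kidneys (limma adjusted p = 0.0144). The highest AZIP array read 9.36 and the lowest FVB control array 9.61, so the groups did not overlap. Bhmt, which returns homocysteine to methionine with betaine, fell by 0.78 ± 0.14 in AZIP kidneys (limma adjusted p = 0.0202). In FVB controls Bhmt was higher than in mixed controls, at 0.83 (limma adjusted p = 0.00430), so the mean of FVB controls stood above the other groups. Dmgdh, which acts on the dimethylglycine that Bhmt leaves, fell by 0.42 ± 0.09 in Pparg null kidneys (limma adjusted p = 0.0270). Its AZIP difference was -0.37 ± 0.09, without overlap (limma adjusted p = 0.0606). The Pparg null differences of Cbs and Bhmt were -0.09 ± 0.12 and -0.36 ± 0.14 (limma adjusted p = 0.732 and 0.179). Cbs lost the threshold without AZIP replicate 2 or FVB control replicate 1 (limma adjusted p up to 0.0596). Bhmt lost it without AZIP replicate 2 or 3 or FVB control replicate 1 or 2 (limma adjusted p up to 0.0904), and Dmgdh without any 1 of 5 arrays, all but Pparg null replicate 2 (limma adjusted p up to 0.0983).

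Of 7 measured genes of glutamine, glutamate and transamination, Got1, the cytosolic aspartate aminotransferase, rose in both lines. It rose by 0.31 ± 0.05 in Pparg null kidneys (limma adjusted p = 0.00982) and by 0.26 ± 0.05 in AZIP kidneys (limma adjusted p = 0.0322). Got1 read 12.27, 12.29 and 12.16 in Pparg null against 11.90, 11.99 and 11.91 in mixed control arrays, and 12.34, 12.25 and 12.23 in AZIP against 11.99, 11.98 and 12.07 in FVB control arrays. It lay above its controls on all 6 mutant arrays. The AZIP rise lost the threshold without any 1 of 5 arrays, all but FVB control replicate 3 (limma adjusted p up to 0.130).

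Transcription factors of proximal tubule and liver metabolism held the largest share of called genes among the lists, 5 of 10 measured in Pparg null and 4 of 10 in AZIP kidneys. Over all genes 5.29% and 2.43% were called. This list too was chosen with earlier results of these data known, so its share is not independent support. Cebpa, a factor that drives amino acid and glucose genes in liver, fell by 0.65 ± 0.13 and 0.72 ± 0.13 (limma adjusted p = 0.0167 and 0.0190). It read 7.76, 7.38 and 7.63 in Pparg null against 8.43, 8.09 and 8.21 in mixed control arrays, and 7.74, 7.71 and 7.83 in AZIP against 8.67, 8.57 and 8.19 in FVB control arrays. No mutant array reached its controls. The coactivator Ppargc1a rose by 0.28 ± 0.05 and 0.26 ± 0.05 (limma adjusted p = 0.00878 and 0.0202), and the glucocorticoid receptor Nr3c1 fell by 0.19 ± 0.04 and 0.21 ± 0.04 (limma adjusted p = 0.0214 and 0.0243). Hnf4g fell by 0.48 ± 0.10 in Pparg null kidneys (limma adjusted p = 0.0176), while Hnf4a was at -0.13 and -0.17 (limma adjusted p = 0.253 and 0.156). The AZIP difference of Hnf4g was -0.22 ± 0.10, with overlap (limma adjusted p = 0.281). Cebpa lost the threshold without Pparg null replicate 2 or mixed control replicate 1 (limma adjusted p up to 0.0736), and in AZIP kidneys without AZIP replicate 2 or FVB control replicate 1 or 2 (limma adjusted p up to 0.0904). Ppargc1a lost it in AZIP kidneys without AZIP replicate 3 or FVB control replicate 1 or 2 (limma adjusted p up to 0.0959), and Hnf4g without Pparg null replicate 2 or 3 or mixed control replicate 1 or 2 (limma adjusted p up to 0.0736). Nr3c1 lost it in AZIP kidneys without any 1 of 5 arrays, all but AZIP replicate 1 (limma adjusted p up to 0.0931).

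Genes with the pattern most like each enzyme were sought among 9963 genes at or above the median level, by Pearson r over the 12 arrays after the mean of each strain was subtracted. These r describe 12 arrays that share the same mutant and control groups, so they carry no p. Uroc1 was most like Cdc42bpg (r = 0.957) and Bend5 (0.955), followed by Slc6a8, the creatine transporter (0.951). Hpd was most like Gatd3a (0.929) and Gpat3 (0.922), and Fah most like the mitochondrial carrier Slc25a21 (0.982) and the thyroid hormone receptor Thrb (0.971). Gatm was most like Qdpr (0.893), which regenerates the cofactor of phenylalanine hydroxylation. Ddc was most like Snx18 (0.950), followed by Hao2, a peroxisomal hydroxy acid oxidase (0.941), and Pccb of propionate use (0.929). Agxt2 was most like Gna12 (0.926), Hal like 9430015G10Rik (0.936), Amdhd1 like Cab39 (0.920) and Ftcd like Mir328 (0.881).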

How the data were processed

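RNA of 12 pools of whole kidney, 3 per group, was measured on Affymetrix arrays. The deposited log2 values per probe set are the authors' RMA summaries; the submitters' processing notes name Affymetrix Expression Console. The sources used here do not give its version, its settings or the annotation build. RMA corrects background, sets arrays to one distribution and sums up probes, so an overall shift of an array is removed. Array medians lay between 7.17 and 7.21. Depth has no counterpart on arrays; the 3 arrays per group limit the precision, with a median SE of a difference of 0.0698.

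Of 35556 probe sets 21789 had 1 gene symbol, 1621 several and 12146 none. Symbols of 21698 were updated by Entrez number from a RefSeq gene table (GRCm38.p6). Where several probe sets shared a gene (999 genes) the brightest was used, leaving 19938 genes, unfiltered. limma 3.58.1 (R 4.3.3) estimated the group means over the 12 arrays (8 residual and 3.71 prior degrees of freedom). Adjustment was Benjamini-Hochberg over all genes, with a threshold of 0.05. The script was tested on simulated data. Nothing says that the pools of a group came from separate experiments, so p-values measure the spread between these pools.

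The enzymes and lists were chosen with earlier results of these data known. Named genes are the enzymes, up to 3 genes per pathway list and line with the smallest p past the threshold, and the 3 genes most like each enzyme (in part printed); Hgd, Gamt, Th, Ddah1, Hnf4a, Bcat1 and the marker genes were named after their values were seen. Promoter stretches are RefSeq's, of GRCm38.p6, and all 9 enzymes matched.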

Additional observations from a re-analysis of the deposited data

How the results depend on the processing

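Agxt2 in Pparg null kidneys passed under all 9 other settings of normalization, filter, variance model, weights and block (limma adjusted p from 0.00351 to 0.0260), and Uroc1 in AZIP kidneys under 8 of 9 (limma adjusted p from 0.0156 to 0.0950, the highest with only the groups compared). The count of enzymes called in AZIP kidneys was 2 after quantile normalization, a shift to equal medians, a filter at percentile 25, a variance trend or an adjusted p under 0.10, with Ddc the added gene, and 0 with only the groups compared (limma, 3 at an unadjusted p under 0.05). The strain count of 3 became 1 with only the groups compared. With 1 array left out the counts ranged from 0 to 1 (Pparg null, main 1), 0 to 2 (AZIP, main 1), 1 to 2 (strain, main 3) and stayed 0 for the difference of effects. Other amino acid genes called ranged from 5 to 16 in Pparg null (main 15) and from 0 to 10 in AZIP kidneys (main 9). In AZIP kidneys they were 14 after quantile normalization, a shift to equal medians or the filter, 3 with only the groups compared, 22 with a variance trend, 16 with the replicate block and 23 at an adjusted p under 0.10. Fewer arrays leave fewer degrees of freedom; other causes were not tested.

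The replicate numbers of the labels were not used to pair the arrays. Deviations of same-numbered arrays correlated at 0.18, 0.18 and 0.0086 in the mixed strain and at -0.04, -0.10 and -0.0099 in FVB. Differently numbered arrays correlated at -0.26 to 0.15 in the mixed strain and at -0.11 to 0.15 in FVB. The highest values of the mixed strain were thus same-numbered, and these few pairs cannot settle whether the numbers pair arrays there. With the replicate block the enzymes called were 1 in Pparg null and 1 in AZIP kidneys, 0 for the difference and 2 for the strains, where Gatm missed the threshold (limma adjusted p = 0.0509).

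Among the enzymes, signs turned only where no call was made. The difference of effects on Fah (main 0.01) was -0.0020 after quantile normalization and -0.0073 with array weights, and ranged from -0.028 to 0.038 with 1 array left out. Also with 1 array left out, it ranged from -0.11 to 0.11 for Ftcd, -0.060 to 0.011 for Gatm and -0.048 to 0.82 for Hpd. In Pparg null kidneys Amdhd1 ranged from -0.11 to 0.13 and Ftcd from -0.12 to 0.10. In AZIP kidneys Ftcd ranged from -0.13 to 0.053 and Gatm from -0.052 to 0.012, and between strains Ddc from -0.0039 to 0.13. Of the genes called, 50.4% were higher in Pparg null kidneys (42.1% after quantile normalization, 38.6% after a shift to equal medians) and 53.6% in AZIP kidneys (45.8% and 38.4%). Low signals limit what can be said of Hal, Amdhd1 and Ftcd.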

Other observations

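Residual spread around the group means set the enzymes apart. The SD over the 12 arrays lay at percentile 99.9 of all genes for Hpd, 98.9 for Uroc1, 96.5 for Amdhd1, 93.3 for Ftcd and 93.2 for Ddc, and at 26.6 for Hal, 26.4 for Agxt2, 18.3 for Gatm and 13.5 for Fah. The median SD of all genes was 0.0880 in log2, and that of Hpd 0.594.

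The summed level of the hepatocyte marker list, named here as a check, differed between strains more than between genotypes. This sum lay between 11.07 and 11.77 (log2) in the mixed strain and between 9.39 and 9.59 in FVB, and the gene with the largest difference was the transthyretin gene Ttr, at -4.16 in FVB minus mixed controls (log2). Ttr was also the brightest gene of the list, so it weighs heavily in the sum. The median difference of the 10 genes was -0.10, and limma called 3, all lower in FVB.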
